A study of Mus musculus with 4 samples.

Results

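Undifferentiated activated myogenic cells of the extraocular muscles (EOM), the small muscles that move the eye, were compared with those of the tibialis anterior (TA), a muscle at the front of the lower leg. Cells were taken from 1 activated EOM library and 1 activated TA library if they held at least 5000 UMIs (unique molecular identifiers, 1 per captured transcript) and at most 10% mitochondrially encoded UMIs. The cells were chosen by their own UMIs of Myog, Mymk and Mymx, genes of myoblast commitment and fusion: a cell was kept when the sum of the 3 came to 2 or less per 10000 UMIs. That left 4107 cells, 2827 from EOM and 1280 from TA, out of 10272 filtered activated cells and 23170 cell barcodes in the series.

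All libraries were made from adult Tg:Pax7-nGFP mice aged 2 to 4 months, in which a Pax7-driven nuclear GFP marks the muscle stem cells for sorting. The activated EOM and activated TA cells had been sorted and then cultured for 4 days on Matrigel in growth medium under 3% oxygen. The quiescent EOM and quiescent TA cells, used here only as a setting for the activated ones, went to droplet sequencing straight after the sort. Each of the 4 groups is 1 library, and the number of animals behind a library is not given in the sources used here. The sort rests on the Pax7 transgene, so cells without its GFP were not its target. Markers of other cell types were still found in the quiescent libraries, as given further on.

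Muscle stem cells lie quiescent beneath the basal lamina of the fibre and are marked by the transcription factor Pax7. Once activated they enter the cell cycle as myoblasts and express Myf5 and Myod1, bHLH factors that specify the muscle lineage. They then leave the cycle under Myog, fuse through the membrane proteins encoded by Mymk and Mymx, and switch on contractile genes such as the actins and troponins. EOM arise from head mesoderm and limb muscles from somites, and the HOX genes that mark position along the trunk and limb are not used in head muscle.

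With 1 library per muscle no test between muscles could be made. Levels are UMIs summed over the cells of a population and scaled to CPM (counts per 1000000 UMIs). Each fold is followed by its exact 95% interval from the 2 Poisson counts, and shares of cells carry an exact (Clopper-Pearson) 95% binomial interval. These intervals cover counting error only, and not the spread between mice, cultures or library preparations. Differences on the log2 scale were taken after adding 1 CPM to both sides.

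The activated libraries held 7597 (EOM) and 6086 (TA) barcodes, and the kept cells carried 67237963 (EOM) and 32964486 (TA) UMIs, with medians of 22724 and 25062 UMIs per cell. Mitochondrially encoded transcripts made up a median of 5.95% of UMIs in kept EOM cells and 5.89% in kept TA cells. No barcode was shared between the kept cells of EOM and TA, and any pair of the 4 libraries shared between 5 and 12 barcodes. The doublet caller's own threshold marked 0 EOM and 1 TA barcode, so doublets were not removed by it. The EGFP transcript stood at 29.4 CPM in kept EOM and 29.3 CPM in kept TA cells.

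Undifferentiated cells made up 2827 of 5844 filtered EOM cells, or 48.4% (47.1 to 49.7), and 1280 of 4428 filtered TA cells, or 28.9% (27.6 to 30.3). Taken over all barcodes the shares were 37.2% in EOM and 21.03% in TA. Within the kept cells, 656 EOM cells (23.2%) and 178 TA cells (13.9%) had no UMI of the 3 genes at all. The mean sum was 0.688 per 10000 UMIs in kept EOM cells and 0.880 in kept TA cells, so the TA cells sat closer to the limit. Just inside it, between 1.5 and 2 per 10000, lay 247 EOM and 218 TA cells, and just outside, between 2 and 2.5, lay 141 EOM and 154 TA cells. These values chose the cells and are given as a description.

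**Figure D1:**
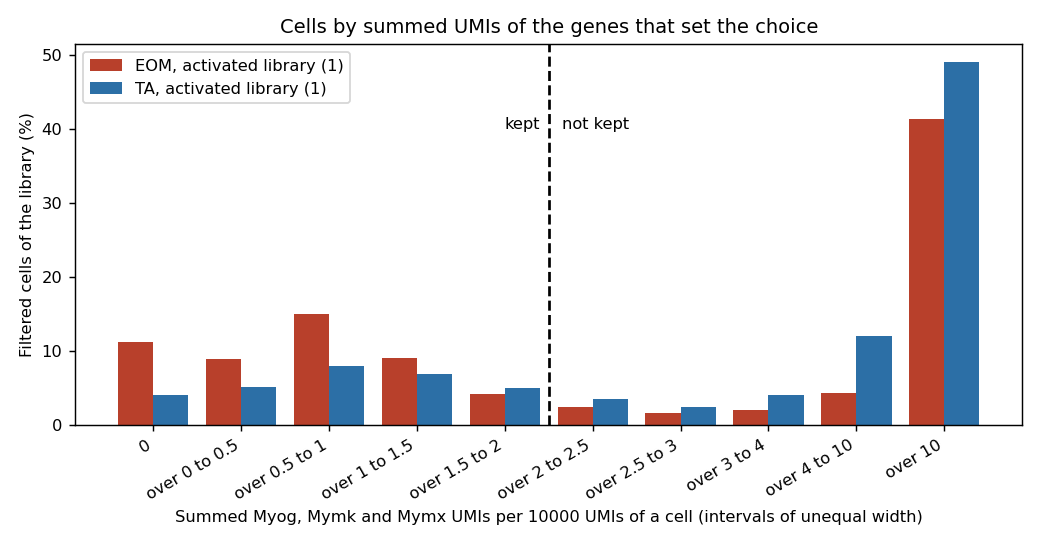
Share of each activated library's filtered cells (y axis, percent) by summed Myog, Mymk and Mymx UMIs per 10000 (x axis, intervals of unequal width), for EOM (red) and TA (blue), with the dashed line at the limit of 2. The lowest interval, with no UMI, holds 11.2% of EOM and 4.02% of TA cells, and the highest, over 10, holds 41.3% of EOM and 49.1% of TA cells.

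Of the 3 genes that set the choice, Myog was left at 50.1 CPM in kept EOM and 54.1 CPM in kept TA cells, against 2809 and 2185 CPM in the differentiating cells of EOM and TA, as the filtered cells over the limit are called here. Mymk was left at 12.5 CPM in kept EOM and 30.8 CPM in kept TA cells. Mymx was left at 6.22 CPM in kept EOM and 3.12 CPM in kept TA cells.

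The lineage markers were present on both sides, at unequal levels. Pax7 stood at 122 CPM in kept EOM and 97.4 CPM in kept TA cells, a 1.25-fold difference (1.20 to 1.30), while the differentiating cells had 31.6 CPM in EOM and 35.8 CPM in TA. Myf5 stood at 84.2 CPM in kept EOM and 178 CPM in kept TA cells, 2.11-fold (2.03 to 2.19) lower in EOM. Myod1 stood at 191 CPM in kept EOM and 753 CPM in kept TA cells, 3.94-fold (3.86 to 4.03) lower in EOM. With every cell thinned to 5000 UMIs, 42.1% (40.3 to 43.9) of kept EOM cells and 83.8% (81.7 to 85.8) of kept TA cells held a Myod1 UMI, and without thinning 75.8% and 97.7% did. Myod1 was higher in the differentiating cells, at 1088 CPM in EOM and 1376 CPM in TA. By these markers the kept cells of both muscles were thus myogenic, with Pax7 higher and Myod1 lower than in the differentiating cells. The word undifferentiated names the choice by Myog, Mymk and Mymx, and kept TA cells also held contractile transcripts, given further on.

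Most kept cells of both muscles bore proliferation transcripts. A UMI of Mki67 or Top2a, genes of dividing cells, was found after thinning in 82.7% (81.2 to 84.0) of kept EOM cells and 83.2% (81.0 to 85.2) of kept TA cells. Most differentiating cells held one too, 57.5% of them in EOM and 61.8% in TA. Without thinning, Top2a alone was found in 91.4% of kept EOM and 94.2% of kept TA cells. Mki67 had 219 CPM in kept EOM and 184 CPM in kept TA cells, and Top2a had 390 CPM in kept EOM and 363 CPM in kept TA cells. Of 42 S phase genes that reached 20 CPM in either muscle, 1 was past 2-fold, on the lower side in EOM, and 0 were higher. That gene was Rrm2, a subunit of ribonucleotide reductase, with 452 CPM in kept EOM and 941 CPM in kept TA cells. None of 57 genes of the G2 and M phases differed by 2-fold in either direction. Over all 5389 genes tested, only 2.69% were higher and 1.39% lower, so such low counts are not particular to cell cycle genes.

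Across the transcriptome, 5389 genes reached 20 CPM in one muscle or the other. Kept EOM cells had 145 of them (2.69%) at 2 or more times the TA level and 75 (1.39%) at 0.5 times that level or less. The 75 include Mymk, whose own UMIs helped to choose the cells. The median log2 ratio over 8903 genes at 5 CPM or more was -0.005, so that EOM and TA levels were centred on each other. Matrix genes and regulators of head muscle were among the genes furthest above TA in EOM. Those lower in EOM were led by HOX genes, contractile genes and Myod1. On mm10, in GENCODE vM21, the most discussed of these are the protein-coding genes Mgp (chr6:136872435-136875823, minus strand), Col1a2 (chr6:4504814-4541544, plus strand), Acta1 (chr8:123891769-123894751, minus strand), Tnnt2 (chr1:135836354-135852260, plus strand) and Myod1 (chr7:46376474-46379099, plus strand).

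**Figure D2:**
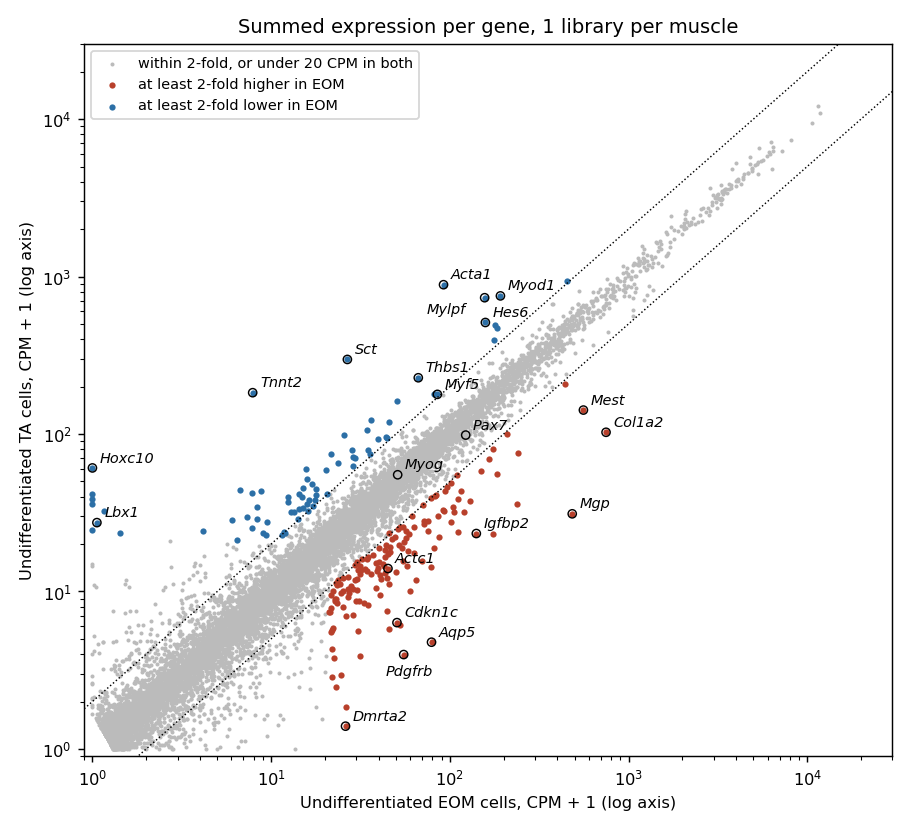
CPM plus 1 of each gene in kept EOM cells (x axis) and kept TA cells (y axis), both on log axes, 1 library per muscle. Coloured points are at least 2-fold apart at 20 CPM or more in either muscle, dotted lines mark 2-fold, and Mgp, Col1a2 and Mest lie far below the diagonal while Acta1, Tnnt2 and Hoxc10 lie far above it.

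Genes of the extracellular matrix were widely higher in undifferentiated EOM cells. Of the matrix genes 66 were measured at that level, with 25 past 2-fold on the EOM side and 2 on the TA side, against 2.69% and 1.39% of all genes tested, and the median log2 ratio was 0.53 beside -0.005 for all genes. Among the collagens, structural fibre proteins, 6 of 11 were higher and 0 lower. Col1a2, a chain of type I collagen, stood at 748 CPM in kept EOM and 102 CPM in kept TA cells, 7.36-fold (7.11 to 7.63) higher in EOM. A Col1a2 UMI was found after thinning in 92.8% (91.8 to 93.7) of kept EOM and 28.4% (25.9 to 30.9) of kept TA cells, and without thinning in 99.5% and 60.5%. Col6a1, a chain of the pericellular type VI collagen, stood at 51.3 CPM in kept EOM and 5.13 CPM in kept TA cells. Col12a1 had 43.3 CPM in kept EOM and 11.2 CPM in kept TA cells, and Col26a1 had 24.2 CPM and 6.98 CPM. Thus nearly every EOM cell held Col1a2 at this depth, and only a minority of TA cells did.

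Among glycoproteins and proteoglycans, 10 of 28 were at least 2-fold higher and 1 was lower in EOM. Mgp, which encodes the calcification inhibitor matrix Gla protein, stood at 483 CPM in kept EOM and 30.1 CPM in kept TA cells, 16.0-fold (15.1 to 17.1) higher. It was found after thinning in 62.2% (60.3 to 63.9) of kept EOM and 8.52% (7.04 to 10.2) of kept TA cells. Biglycan (Bgn), a small leucine-rich proteoglycan, stood at 236 CPM in kept EOM and 35.1 CPM in kept TA cells. Islr, a secreted leucine-rich repeat protein, had 173 CPM in kept EOM and 22.1 CPM in kept TA cells. These 3 genes were more than 6-fold apart. The basement membrane linker nidogen-2 (Nid2) stood at 68.6 CPM in kept EOM and 14.7 CPM in kept TA cells. Ptx3, a pentraxin that binds hyaluronan-rich matrix, had 43.7 CPM in kept EOM and 6.52 CPM in kept TA cells. The gene that went the other way was Thbs1, for the matricellular protein thrombospondin-1, with 65.6 CPM in kept EOM and 227 CPM in kept TA cells, 3.45-fold (3.33 to 3.59) lower in EOM. Fibronectin (Fn1) stood at 95.6 CPM in kept EOM and 45.0 CPM in kept TA cells.

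Enzymes that build or remodel matrix followed with 9 of 27 higher and 1 lower. The gelatinase gene Mmp2 stood at 30.5 CPM in kept EOM and 2.91 CPM in kept TA cells, 10.5-fold (8.53 to 13.0) higher. Pcolce, an enhancer of procollagen cleavage, had 80.4 CPM in kept EOM and 18.0 CPM in kept TA cells. Mmp14, a membrane-bound metalloprotease, had 38.2 CPM in kept EOM and 12.5 CPM in kept TA cells, and the hyaluronan synthase Has2 had 29.9 CPM and 7.67 CPM. The prolyl hydroxylase subunits P4ha1 and P4ha2, which modify collagen chains, were closer to the threshold. P4ha1 stood at 101 CPM in kept EOM and 47.6 CPM in kept TA cells. Serpine2, a protease inhibitor, was the gene that was lower, with 10.9 CPM in kept EOM and 22.9 CPM in kept TA cells.

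Surface, signalling and transport genes included some of the widest gaps. Aqp5, a water channel, stood at 78.0 CPM in kept EOM and 3.76 CPM in kept TA cells, 20.7-fold (17.4 to 24.98) higher. Pdgfrb, a receptor for platelet-derived growth factor, stood at 54.2 CPM in kept EOM and 2.97 CPM in kept TA cells, 18.2-fold (14.9 to 22.5) higher. It was the 1 gene past 2-fold among 11 PDGF, FGF, HGF and EGF receptors and ligands, a list with a median log2 ratio of -0.06. Over all genes tested, 2.69% were higher and 1.39% lower. Nrp1, a semaphorin and VEGF co-receptor, had 53.7 CPM in kept EOM and 14.7 CPM in kept TA cells. Wisp2, a matricellular CCN protein, had 59.0 CPM in kept EOM and 9.13 CPM in kept TA cells. Fabp7, a fatty acid binding protein, had 63.9 CPM in kept EOM and 10.7 CPM in kept TA cells, and Pmp22, a tetraspan membrane protein, had 77.8 CPM and 13.3 CPM. All of these were at least 3-fold higher in EOM.

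Because matrix genes and Pdgfrb also mark connective tissue cells, lists of other cell types were read in the same populations. Of 12 fibroblast markers, 3 reached 20 CPM and 1 was at least 2-fold higher in EOM, against 2.69% of all genes tested. This was the actin-severing protein gene Gsn, with 148 CPM in kept EOM and 57.3 CPM in kept TA cells. The summed fibroblast level was 274 CPM in kept EOM and 155 CPM in kept TA cells. Col3a1 had 91.8 CPM in kept EOM and 62.7 CPM in kept TA cells, and Col1a1 had 19.1 and 6.22 CPM. Ly6a went the other way, with 14.96 CPM in kept EOM and 28.0 CPM in kept TA cells. The remaining fibroblast markers were each under 1 CPM in both. Pdgfra had 6 UMIs in kept EOM and 6 in kept TA cells, Dcn had 1 and 2, and Lum and Pi16 had 0 in both. Of 12 mural markers, 5 reached 20 CPM and 2 (Pdgfrb and Notch3) were higher, against the same 2.69% of all genes. The summed mural level was 2175 CPM in kept EOM and 1608 CPM in kept TA cells, most of it Acta2 and Des, which myoblasts also express. The mural genes Rgs5, Myh11, Kcnj8 and Abcc9 were each under 1 CPM in both, though Rgs5 had 41 UMIs in kept EOM and 2 in kept TA cells. Tagln had 204 CPM in kept EOM and 300 CPM in kept TA cells, and Mcam had 11.4 and 4.19 CPM. Of 7 tenocyte markers, Scx alone reached 20 CPM, and Tnmd had 0 UMIs in both. Endothelial, immune, Schwann and neural, erythroid, adipocyte and epithelial markers summed to at most 9.76 CPM per list in EOM and 7.67 CPM in TA.

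Transcription factors of mesenchyme had 4 of 23 members higher, 1 lower and a median log2 ratio of 0.59. Over all genes tested, 2.69% were higher and 1.39% lower. Creb3l1, a regulator of collagen secretion, stood at 164 CPM in kept EOM and 68.0 CPM in kept TA cells, and Nr2f2 had 48.4 CPM in kept EOM and 21.2 CPM in kept TA cells. Prrx1, a homeobox gene of mesenchyme, was under the 2-fold size with 151 CPM in kept EOM and 88.5 CPM in kept TA cells. The member that was lower was Scx, a bHLH factor of tendon, with 24.5 CPM in kept EOM and 97.3 CPM in kept TA cells.

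Insulin-like growth factor genes had 5 of 9 members higher and 0 lower, against 2.69% and 1.39% of all genes tested. Igfbp2, which binds the growth factors outside the cell, stood at 140 CPM in kept EOM and 22.3 CPM in kept TA cells, 6.26-fold (5.81 to 6.75) higher. Igfbp7 had 129 CPM in kept EOM and 36.5 CPM in kept TA cells, the RNA-binding protein gene Igf2bp2 had 35.2 CPM and 11.9 CPM, and the receptor substrate gene Irs2 had 26.2 CPM and 8.80 CPM. Among imprinted genes, expressed from 1 parental allele, 3 of 13 were higher and 0 lower, against the same shares of all genes. Mest stood at 558 CPM in kept EOM and 141 CPM in kept TA cells, and the noncoding RNA Meg3 at 86.0 CPM and 21.1 CPM. The third was Cdkn1c, for the CDK inhibitor p57, with 49.6 CPM in kept EOM and 5.34 CPM in kept TA cells, 9.29-fold (7.98 to 10.9) higher. A Cdkn1c UMI was found after thinning in 17.9% of kept EOM and 2.81% of kept TA cells, a minority in both muscles.

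Other cell cycle genes of the G1 phase split in direction. Cyclin D2 (Ccnd2) stood at 182 CPM in kept EOM and 54.9 CPM in kept TA cells. Cdkn1a, for the CDK inhibitor p21 that rises at cell cycle exit, stood at 38.7 CPM in kept EOM and 92.6 CPM in kept TA cells, and the stress gene Gadd45a had 16.8 CPM in kept EOM and 43.9 CPM in kept TA cells. Gadd45g had 176 CPM in kept EOM and 391.7 CPM in kept TA cells. Of the 23 CDK inhibitors and G1 cyclins with their relatives, 2 were thus higher and 3 lower in EOM, with a median log2 ratio of -0.04. Over all genes tested, 2.69% were higher and 1.39% lower.

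Notch, the pathway that holds muscle stem cells undifferentiated, had 3 of 13 genes higher and 1 lower. Over all genes tested the shares were 2.69% and 1.39%, and the median log2 ratio of the Notch list was 0.17. The receptor Notch3 stood at 46.7 CPM in kept EOM and 20.7 CPM in kept TA cells, and the target Hey1 at 37.7 CPM and 14.3 CPM. The third was Dtx4, with 29.3 CPM in kept EOM and 14.3 CPM in kept TA cells. Notch3 came under 2-fold among cells with no UMI of Myog, Mymk or Mymx, and Dtx4 among cells at 1 or less per 10000. Hes6, a HES family member that favours myogenic differentiation, was the lower one, with 157 CPM in kept EOM and 510 CPM in kept TA cells. Of 19 early response genes, 4 were higher and 0 lower, against the same shares of all genes. Egr1 stood at 120 CPM in kept EOM and 31.1 CPM in kept TA cells, Fos at 42.3 CPM and 12.1 CPM, and Fosb at 44.6 CPM and 10.2 CPM. In glycolysis and the hypoxia response 5 of 29 genes were higher, against 2.69% of all genes tested. Among them was Bnip3, with 77.9 CPM in kept EOM and 38.0 CPM in kept TA cells. Of those 5, P4ha1, P4ha2 and Plod2 were counted among the matrix enzymes as well.

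Contractile and differentiation genes were lower in the undifferentiated EOM cells. Of 33 that reached 20 CPM, 12 were past 2-fold on the lower side, against 1.39% of all genes, and 1 was higher, and the median log2 ratio was -0.47. The list is wider than contractile proteins: the 12 include Cryab, Cdkn1a, Dmpk and Rbm24. Cdkn1a was counted among the CDK inhibitors as well. Skeletal alpha-actin (Acta1) stood at 91.2 CPM in kept EOM and 887 CPM in kept TA cells, 9.72-fold (9.45 to 9.99) lower in EOM. Cardiac troponin T (Tnnt2), which developing skeletal muscle also uses, stood at 6.89 CPM in kept EOM and 182 CPM in kept TA cells, 26.4-fold (24.0 to 29.1) lower. The fast myosin light chain gene Mylpf stood at 156 CPM in kept EOM and 733 CPM in kept TA cells, 4.71-fold (4.60 to 4.82) lower. All 3 genes code for sarcomere proteins and were at 182 CPM or more in kept TA cells, in which Myog stood at 54.1 CPM and was found after thinning in 23.9% of cells. Troponin C genes followed, with 20.5 CPM of Tnnc1 in kept EOM and 73.2 CPM in kept TA cells, and 14.8 CPM of Tnnc2 in kept EOM and 50.6 CPM in kept TA cells. The chaperone gene Cryab had 179 CPM in kept EOM and 495 CPM in kept TA cells. These genes rise with the 3 genes that chose the cells, and the TA cells sat closer to the limit, so values at equal sums are given further on. The gene that was higher was cardiac alpha-actin (Actc1), with 44.1 CPM in kept EOM and 13.0 CPM in kept TA cells, 3.39-fold (3.07 to 3.76) higher in EOM.

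The start regions of the 3 leading contractile genes are shown because these genes were low together in EOM. Bases from 250 before to 50 after the start are from RefSeq on GRCm38.p6, on the gene's strand, with capitals marking CAGCTG, an E-box of the kind MyoD binds. The motif reads the same on both strands. Acta1 is at chr8:123894726-123895025 on the minus strand, Tnnt2 (the first of its 2 listed starts) at chr1:135836084-135836383 on the plus strand and Mylpf at chr7:127211358-127211657 on the plus strand.
Acta1: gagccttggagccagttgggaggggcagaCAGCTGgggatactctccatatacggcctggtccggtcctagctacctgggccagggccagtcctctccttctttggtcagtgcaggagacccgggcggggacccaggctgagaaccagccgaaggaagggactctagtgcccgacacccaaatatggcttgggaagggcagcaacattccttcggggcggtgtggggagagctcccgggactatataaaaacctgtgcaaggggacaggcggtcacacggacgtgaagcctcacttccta
Tnnt2: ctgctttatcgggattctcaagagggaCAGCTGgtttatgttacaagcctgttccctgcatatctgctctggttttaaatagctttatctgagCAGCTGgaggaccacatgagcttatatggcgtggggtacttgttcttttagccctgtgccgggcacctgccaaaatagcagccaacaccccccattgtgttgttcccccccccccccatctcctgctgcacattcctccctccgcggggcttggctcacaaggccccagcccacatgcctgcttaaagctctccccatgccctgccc
Mylpf: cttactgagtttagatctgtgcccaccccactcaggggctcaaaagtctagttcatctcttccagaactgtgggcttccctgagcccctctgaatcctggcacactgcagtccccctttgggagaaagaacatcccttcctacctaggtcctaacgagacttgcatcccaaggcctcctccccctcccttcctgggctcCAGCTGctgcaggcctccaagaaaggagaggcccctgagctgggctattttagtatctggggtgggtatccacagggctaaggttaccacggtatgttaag
The motif begins 221 bases before the start in Acta1, 223 and 157 bases before it in Tnnt2, and 51 bases before it in Mylpf. The other listed start of Tnnt2 has none. Of the 12 contractile and differentiation genes lower in EOM, 10 matched the table with 13 promoters, and 6 of these promoters held the motif. Of the 20 within 2-fold, 13 matched with 14 promoters, and 6 of these held it. Over all 32851 promoters of the same length, 16.3% held it. A match is a stretch of letters and not a measured binding site.

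Single cells carried the same differences. After thinning, an Acta1 UMI was found in 30.9% (29.2 to 32.7) of kept EOM and 79.5% (77.1 to 81.6) of kept TA cells, and without thinning in 74.2% and 97.1%. Tnnt2 was found in 2.83% (2.25 to 3.51) of kept EOM and 53.3% (50.5 to 56.0) of kept TA cells, and without thinning in 14.9% and 89.2%. Summed over the contractile list, a kept EOM cell held a median of 25 UMIs of 5000 and a kept TA cell 36, and 16.6% of EOM cells lay above the TA median. Summed over the matrix list, the medians were 42 UMIs in kept EOM and 26 UMIs in kept TA cells. In that sum 89.5% of EOM cells lay above the TA median, and 3.67% of TA cells lay above the EOM median. The tenth of cells with the most matrix UMIs held 16.7% of them in EOM and 16.6% in TA, so in both muscles matrix UMIs were spread over most cells.

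**Figure D3:**
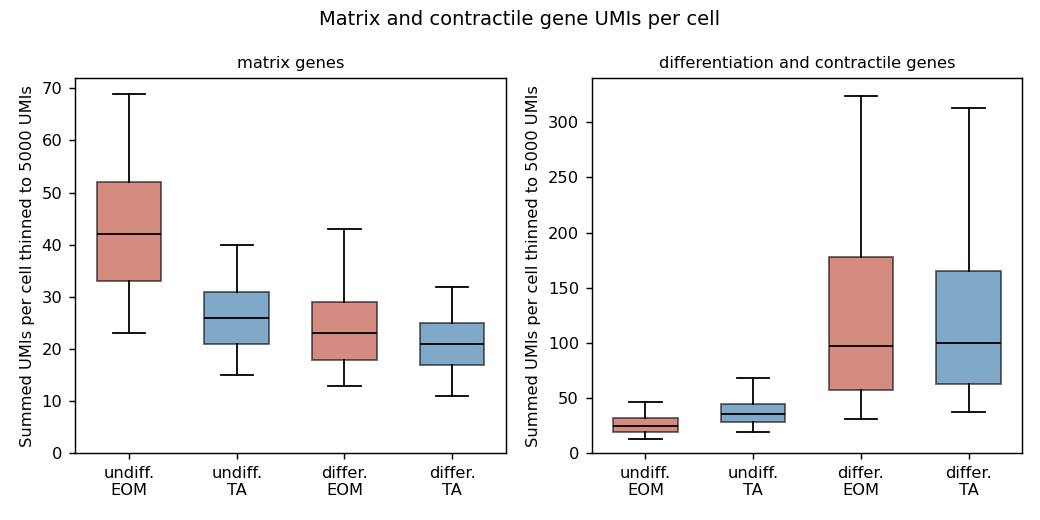
Summed UMIs per cell after thinning to 5000 UMIs (y axes) for the matrix list (left panel) and the contractile list (right panel) in undifferentiated and differentiating cells of EOM (red) and TA (blue); boxes span the quartiles with the median, and whiskers the 5th to 95th percentiles of cells. Undifferentiated EOM cells have the highest matrix median, 42, against 26 in undifferentiated TA cells, while the contractile medians are 25 and 36.

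Cells were not clustered, so none that should lack contractile transcripts were set apart in the activated libraries. The share that free RNA gives could therefore not be measured. The level in kept cells as a percent of that in the same library's differentiating cells was instead taken for the 33 contractile and differentiation genes. It ran from 1.48% to 130% in EOM, with a median of 20.7%, and from 2.71% to 126% in TA, with a median of 30.7%. The highest value in both was that of Cdh15. In TA, Tnnt2 stood at 21.7%, Acta1 at 20.1% and Actc1 at 2.71% of the differentiating level. In EOM, Tnnt2 stood at 1.48%, Acta1 at 4.11% and Actc1 at 2.32%. Within each library the percent thus differed between genes, and the part of free RNA in these levels was not tested.

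Among other genes lower in EOM, Sct, for the peptide hormone secretin, stood at 25.7 CPM in kept EOM and 297 CPM in kept TA cells, 11.5-fold (10.96 to 12.1) lower. The beta-tubulin gene Tubb3 had 6.77 CPM in kept EOM and 41.0 CPM in kept TA cells. The protease inhibitor gene Cst6 had 35.1 CPM in kept EOM and 121 CPM in kept TA cells. Pmepa1, an inhibitor of TGF-beta signalling, had 49.7 CPM in kept EOM and 162 CPM in kept TA cells. Each was at least 3-fold lower in EOM.

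Genes of body position separated the muscles almost completely. Hoxc10 had 0 UMIs in kept EOM and 59.9 CPM in kept TA cells, at least 1342-fold lower in EOM when EOM is set at a floor of 3 UMIs over the population. Hoxa7, Hoxa9, Hoxa10 and Hoxc11 also had 0 UMIs in kept EOM cells, with 37.9, 40.3, 34.9 and 23.5 CPM in kept TA cells. Hoxc10 was found after thinning in 0 of 2827 kept EOM cells and in 25.2% of kept TA cells. For the EOM cells, 3 counts over the 2827 give a limit of 0.106% on the share with a UMI, which is not a limit on cells that express the gene. Over 38 HOX genes, kept EOM cells held 63 UMIs in all and kept TA cells 9619. Lbx1, which muscle precursors need to migrate into the limb, stood at 0.0595 CPM in kept EOM and 26.4 CPM in kept TA cells, and Vgll2, a TEAD cofactor of muscle, at 14.6 CPM and 58.7 CPM. In all, 8 of 9 trunk and limb regulators at 20 CPM or more were lower in EOM, against 1.39% of all genes tested.

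Regulators of head and eye muscle went the other way in 4 of 5 cases, against 2.69% of all genes tested. Dmrta2, a DM-domain transcription factor, stood at 25.1 CPM in kept EOM and 0.394 CPM in kept TA cells, 63.6-fold (37.1 to 120) higher. The homeobox gene Irx5 had 22.2 CPM in kept EOM and 1.46 CPM in kept TA cells, and the forkhead gene Foxc1 had 20.9 CPM and 1.85 CPM. Tbx1, a T-box gene of pharyngeal arch muscle, was the exception, with 0.431 CPM in kept EOM and 22.4 CPM in kept TA cells. Head regulators were thus not uniformly higher in EOM.

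Myogenic regulators as a list had 1 of 14 members higher and 5 lower, and the 5 were Myf5, Myod1, Mef2a, Vgll2 and Lbx1. Mef2a, a partner of Myod1 at muscle genes, stood at 44.6 CPM in kept EOM and 118 CPM in kept TA cells. The other 8 stayed within 2-fold, among them the bHLH partner Tcf12 with 91.8 CPM in kept EOM and 82.5 CPM in kept TA cells. None of 75 cytosolic ribosomal protein genes, 7 interferon response genes, 16 amino acid stress genes or 17 sterol and fatty acid synthesis genes reached 2-fold in either direction. Over all 5389 genes tested, only 2.69% were higher and 1.39% lower, so these empty counts are not particular to those lists.

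**Figure D4:**
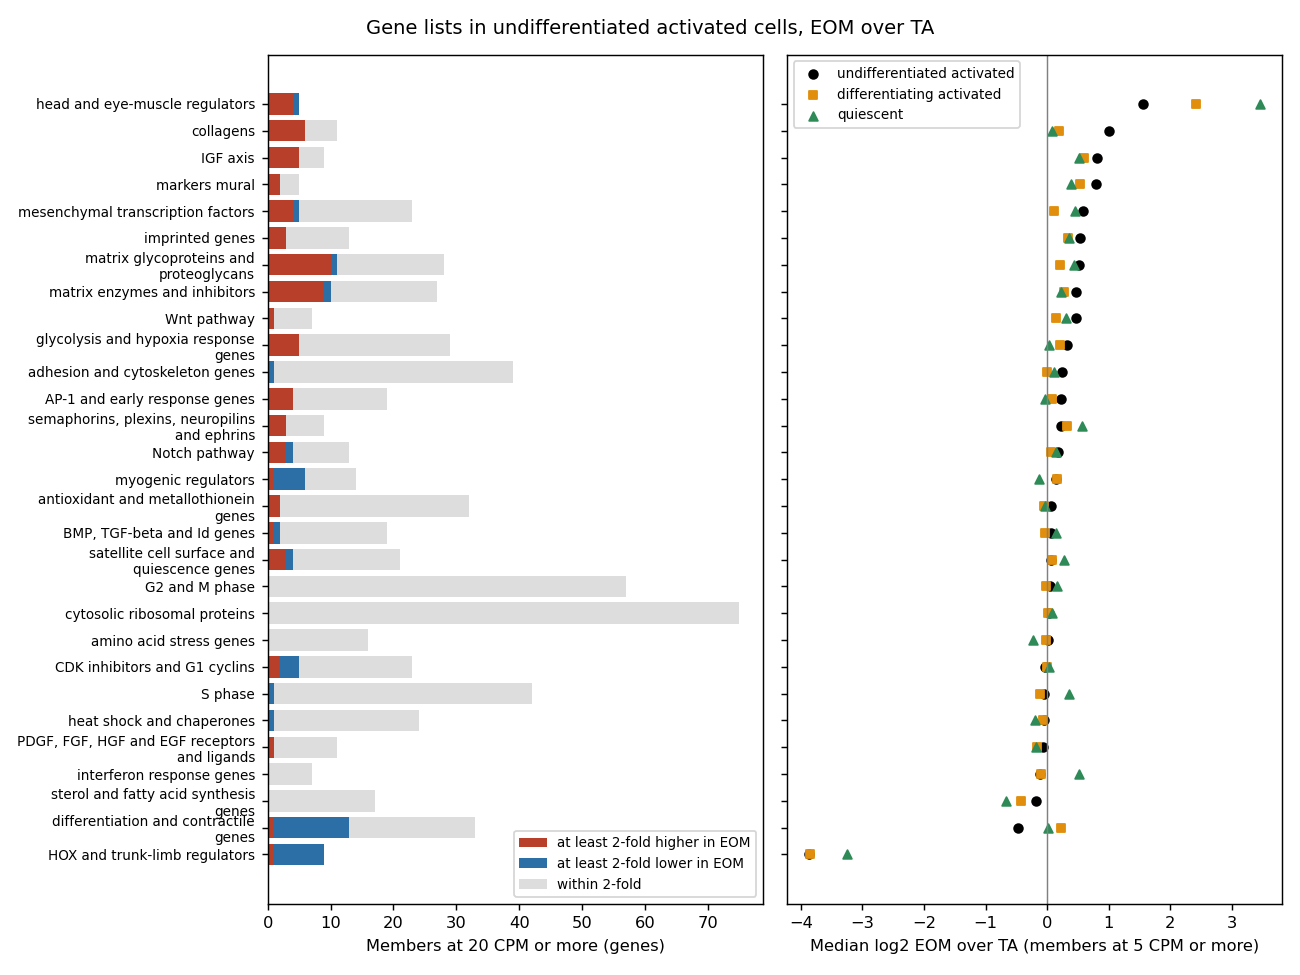
For each gene list with at least 5 members at 20 CPM, the number of members at least 2-fold higher in EOM (red), at least 2-fold lower (blue) or in between (grey), and the median log2 ratio of EOM over TA in undifferentiated activated, differentiating activated and quiescent cells. Collagens have a median of 1.01 in undifferentiated cells and 0.20 in differentiating cells, and contractile genes have -0.47 and 0.22.

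The same ratios were then read in the filtered activated cells over the limit. Among 5186 genes measured there, 86 (1.66%) were at least 2-fold higher in EOM and 42 (0.81%) at least 2-fold lower, and no gene measured in both kinds of cell was past 2-fold in opposite directions. Contractile genes were apart mainly on the undifferentiated side. Acta1 had 2220 CPM in differentiating EOM and 4406 CPM in differentiating TA cells, and its log2 ratio was -3.27 in undifferentiated and -0.99 in differentiating cells. Tnnt2 had 464 CPM in differentiating EOM and 839 CPM in differentiating TA cells, with log2 ratios of -4.54 and -0.85. For Mylpf they were -2.23 and -0.53. None of the 56 contractile and differentiation genes measured in differentiating cells was 2-fold lower in EOM, and 5 were higher. Over all genes measured there only 0.81% were lower and 1.66% higher, so the absence of lower ones is not particular to this list. Acta1 came close to the limit, at 1.98-fold lower in EOM. The differentiating cells were not matched in the 3 choosing genes, whose mean sum was 35.4 per 10000 UMIs in EOM and 26.6 in TA. The Myod1 log2 ratio was -1.97 in undifferentiated and -0.34 in differentiating cells. The difference between these ratios has no replicate and was not tested.

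Other genes whose ratio moved between the undifferentiated and the differentiating cells were the prostacyclin synthase gene Ptgis, with log2 ratios of -1.69 and 0.20, and Dok7, an adaptor of the neuromuscular junction, with -2.05 and -0.18. In the other direction stood Meg3 with 1.97 and 0.36, Pcolce with 2.10 and 1.07, and Prrx1 with 0.76 and -0.30. Cdkn1c was wider apart in differentiating cells, with log2 ratios of 3.00 in undifferentiated and 4.23 in differentiating cells, and stood at 829 CPM in differentiating EOM and 43.2 CPM in differentiating TA cells. The named HOX genes, Lbx1 and the head regulators Irx5, Foxc1 and Dmrta2 kept their direction in both kinds of cell. Lbx1, for example, had log2 ratios of -4.69 in undifferentiated and -4.77 in differentiating cells.

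**Figure D5:**
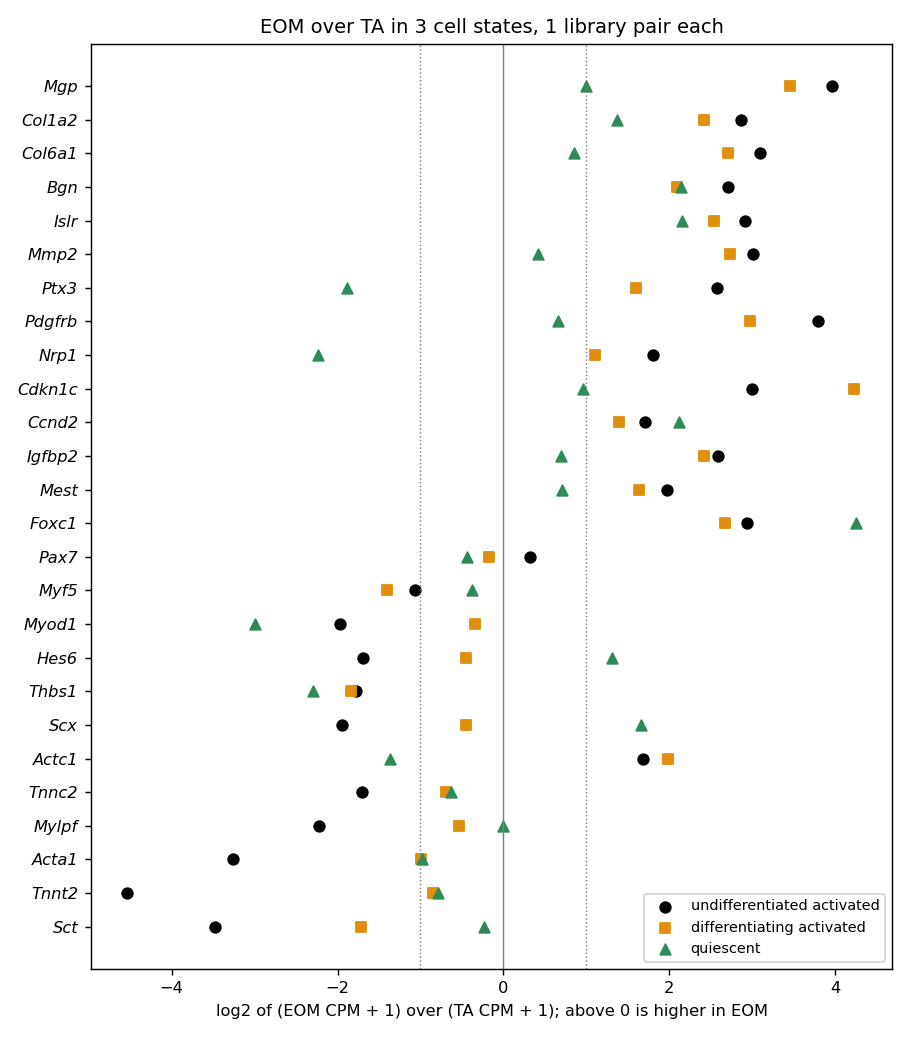
The log2 ratio of EOM over TA (x axis, CPM plus 1) for selected genes in undifferentiated activated (black), differentiating activated (orange) and quiescent cells (green), 1 library pair each, with dotted lines at 2-fold. Acta1 and Tnnt2 lie at -3.27 and -4.54 in undifferentiated cells, and Nrp1 and Ptx3 lie above 0 in activated but at -2.23 and -1.89 in quiescent cells.

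In the quiescent libraries, read with at least 1000 UMIs per cell, 160 of 5428 genes (2.95%) were at least 2-fold higher in EOM and 149 (2.75%) at least 2-fold lower. Markers of other cells were unequal there: erythroid markers summed to 0.0544 CPM in quiescent EOM and 934 CPM in quiescent TA cells, with 4 lower in EOM, and adipocyte markers to 0.489 CPM and 102 CPM. Barcodes over the mitochondrial limit were 11.7% of the quiescent EOM and 40.5% of the quiescent TA library. The part of these in the quiescent ratios was not tested. Of the 4064 genes measured in both quiescent and undifferentiated activated cells, 86 were higher in EOM in the undifferentiated cells and 61 in the quiescent cells. They shared 12, which is 14.0% of those of the undifferentiated cells and 19.7% of those of the quiescent cells. Of 29 lower in the undifferentiated cells and 65 lower in the quiescent cells, 11 were shared, or 37.9% and 16.9%. Over all 4064 genes, 1.501% were higher and 1.60% lower in quiescent EOM. Myod1 was lower in EOM already among quiescent cells, with 149 CPM in quiescent EOM and 1196 CPM in quiescent TA cells. Mgp, Pdgfrb and Aqp5 were at most 6.80 CPM in both quiescent libraries, whereas Bgn had 302 CPM in quiescent EOM and 67.8 CPM in quiescent TA cells. Some of the widest gaps of the undifferentiated cells thus fell on genes that did not reach 20 CPM in freshly sorted cells.

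The differences were also read within cells alike in cycle class or in their sum of the 3 choosing genes. Among 490 kept EOM and 215 kept TA cells in which thinning to 5000 UMIs left no UMI of Mki67 or Top2a, many of which hold one at full depth, Acta1 stood at 101 CPM in EOM and 977 CPM in TA, and Mgp at 496 CPM and 22.0 CPM. Among the cells in which thinning left such a UMI, Acta1 stood at 89.6 CPM in EOM and 872 CPM in TA, and Mgp at 481 CPM and 31.5 CPM. Among the cells with no UMI of Myog, Mymk or Mymx, Myod1 stood at 161 CPM in EOM and 590 CPM in TA, Tnnt2 at 6.72 CPM and 177 CPM, and Mgp at 537 CPM and 55.6 CPM. Across the kept range the levels drifted. Mgp came to 413 CPM in EOM and 26.3 CPM in TA in the interval of 1.5 to 2 per 10000, and Myod1 to 253 CPM and 830 CPM there. Of the listed genes at these intervals, Acta1 in the EOM cells nearest the limit, at 115 CPM, was still far under its 870 CPM in TA cells with no UMI of the 3 genes.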

How the data were processed

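For each of 4 droplet libraries the authors deposited unnormalized UMI counts, with Cell Ranger 3.0.2 and mm10 named in the submitters' processing notes. Which annotation release was used is not given in the sources used here. Barcodes were filtered as stated (5000 UMIs for activated and 1000 UMIs for quiescent cells, at most 10% mitochondrial UMIs), counts were summed over the cells of each population and scaled to CPM. With 1 library per group no test was made: genes at 20 CPM or more in either muscle were counted when at least 2-fold apart, and list medians used members at 5 CPM or more. A population without a UMI was set at 3 UMIs. Cells were not clustered, so cells or RNA of other types in the quiescent libraries were not removed. For shares, 5000 UMIs were drawn from each cell without replacement, which lost no kept cell. The cells, lists and markers were chosen with earlier results of these data known, so a list's direction is no independent evidence.

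Genes were named by rule: the 15 highest and 15 lowest ratios at 50 CPM or more, up to 4 members per list and direction, all measured myogenic, trunk-limb and head regulators, and the 8 genes per direction whose ratio differed most from that of differentiating cells, without sex-linked, haemoglobin, mitochondrial, ribosomal and unnamed genes. A few genes under this rule are not reported here. Fn1, Plod2, the markers of other cell types, EGFP and the genes with opposite directions were named outside it, after their values were seen. Of 31055 features, 30934 matched GENCODE vM21 (GRCm38). Intervals, calls and thinning were tested on simulated data. The work used Python 3.11.15, numpy 2.4.6, scipy 1.17.1, pandas 2.3.3, scanpy 1.11.5 for Scrublet and edgeR for TMM factors.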

Additional observations from a re-analysis of the deposited data

Results flagged for a closer look

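For 5 genes the kept undifferentiated cells and the quiescent cells were at least 2-fold apart between muscles in opposite directions. The difference was not tested, since each state has 1 library per muscle.

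Hes6, a HES family member, had a log2 ratio of EOM over TA of -1.69 in undifferentiated activated and 1.32 in quiescent cells, with 23.8 CPM in quiescent EOM and 8.95 CPM in quiescent TA cells. The basement membrane gene Nid1 had 1.34 in undifferentiated activated and -1.28 in quiescent cells, with 23.6 CPM in undifferentiated EOM and 8.71 CPM in undifferentiated TA cells. The collagen chain gene Col5a3 had 1.39 and -1.38, with 26.0 CPM in undifferentiated EOM and 9.31 CPM in undifferentiated TA cells. The co-receptor gene Nrp1 had 1.80 and -2.23, with 3.48 CPM in quiescent EOM and 20.01 CPM in quiescent TA cells. The pentraxin gene Ptx3 had 2.57 and -1.89, with 18.3 CPM in quiescent EOM and 70.7 CPM in quiescent TA cells.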

How the results depend on the processing

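No direction of the 98 named genes at least 2-fold apart was reversed under any of the alternatives run. No list median that was checked for sign changed it, but small list medians were not checked. Of 558 list medians under the alternatives, 37 moved outside the median counting interval of their members. The shares moved with the limits: cells with no UMI of the 3 genes were 11.2% of EOM and 4.02% of TA, cells at 1 or less per 10000 were 35.1% and 17.2%, and cells at 4 or less were 54.3% and 38.8%. With at most 5% mitochondrial UMIs the shares were 65.8% of 606 EOM and 49.2% of 443 TA cells. Under each of these the EOM share was the higher one.

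Genes at least 2-fold higher and lower in EOM numbered 305 and 179 at 5 CPM or more, 60 and 33 at 50 CPM or more, and 1373 and 1401 with no minimum beyond 1 UMI in each library. With no UMI of the 3 genes they numbered 129 and 81, of which 117 and 66 were also in the main sets of 145 and 75. Under that limit 9 of the 98 named genes came under 2-fold (Creb3l1, Gadd45g, Gpx3, Gpx7, Mymk, Nfia, Notch3, Nr2f2 and P4ha1), and with at most 5% mitochondrial UMIs 6 did (Gadd45a, Gadd45g, Myf5, P4ha2, Rrm2 and Serpine2). For Mymk the first outcome was fixed in advance, since cells with no UMI of the 3 genes hold none of it. Nfia, at the 2-fold limit, also came under it with TMM factors of edgeR. An alternative added after seeing the data weighted EOM cells to TA cells by their UMIs of the 3 genes and gave 146 higher and 72 lower genes. No paired analysis was possible because each group is 1 library. Depth limits levels near 3 UMIs, or 0.0446 CPM in kept EOM and 0.0910 CPM in kept TA cells.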
